A study of Homo sapiens with 40 samples.

Results

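RNA-seq counts were examined for 9 genes of the epithelial tight junction, out of the 60708 genes counted in each of 24 libraries. The genes were taken by name as a set of related junction components: the claudins *CLDN1*, *CLDN3*, *CLDN4* and *CLDN7*, the membrane proteins occludin (*OCLN*), tricellulin (*MARVELD2*) and JAM-A (*F11R*), and the cytoplasmic plaque proteins ZO-1 (*TJP1*) and cingulin (*CGN*). Libraries came in 8 groups of 3. MI-spheres are grown from MCF-10A, an immortalized, non-tumorigenic mammary epithelial cell line, and MII-spheres from its derivative transformed with oncogenic HRAS. Both were cultured in 3D in ultra-low attachment plates, either unstimulated (Ctrl) or with TGFβ1 at 2.5 ng/ml for 16 h. MDA-MB-231, a triple-negative breast cancer cell line, was grown in monolayer and without TGFβ. It was sequenced unmodified (WT), after CRISPR/Cas9 targeting of *SNAI2* (SLUG KO), and after transfection with siRNAs against *SMAD2*, *SMAD3* and *SMAD4* (siSMAD2/3/4) or with a non-targeting siRNA (Csi). The SLUG KO cells were expanded from single-cell colonies, and whether the 3 libraries are of 1 clone is not given in the sources used here. The libraries of a group are described as biological replicates, and p-values measure the spread between them.

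Tight junctions seal the space between neighbouring epithelial cells. Claudins polymerize into strands in the membrane and set which ions pass between cells, occludin and tricellulin belong to these strands at contacts of pairs of cells and of cell corners, and JAM-A is an adhesion protein of the immunoglobulin family. ZO-1 ties the membrane proteins to actin, and cingulin binds to ZO-1 and to actomyosin. In epithelial-mesenchymal transition (EMT), which TGFβ can start, junction genes are classic targets of the repressors of the SNAI and ZEB families, which bind E-box sequences, whereas factors such as GRHL2 and OVOL2 keep epithelial genes active.

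In GRCh38, the build of the counts, the genes lie on 6 chromosomes. The claudins are *CLDN1* (ENSG00000163347.6) at chr3:190305707-190322446, minus strand, *CLDN3* (ENSG00000165215.6) at chr7:73768997-73770270, minus strand, *CLDN4* (ENSG00000189143.10) at chr7:73799542-73832690, plus strand, and *CLDN7* (ENSG00000181885.18) at chr17:7259903-7263983, minus strand. *CLDN3* and *CLDN4* lie close together. The other membrane proteins are *OCLN* (ENSG00000197822.12) at chr5:69492292-69558104, plus strand, *MARVELD2* (ENSG00000152939.17) at chr5:69415065-69444330, plus strand, and *F11R* (ENSG00000158769.18) at chr1:160995211-161021343, minus strand. The plaque genes are *TJP1* (ENSG00000104067.17) at chr15:29699367-29968915, minus strand, and *CGN* (ENSG00000143375.15) at chr1:151510510-151538692, plus strand. Exons of *F11R* share 36.6% of their bases with ENSG00000270149 on the same strand, which had 71 counts in all libraries against 45622. Exons of *CLDN7* share 10.8% with ENSG00000262302, which had no counts, and 1.5% with *ELP5* on the opposite strand. Reads were counted without regard to strand, so reads of the *ELP5* overlap cannot be told apart. The occludin copy *OCLNP1* had 184 counts against 19408 of *OCLN*.

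Each library held between 14124688 and 38406952 counts, and genes called "higher" or "lower" below have an adjusted p under 0.05 in edgeR's quasi-likelihood test. Levels are CPM, library-size normalised read counts after TMM scaling, and errors are SD of 3 libraries for levels and SE for log2 fold-changes. The spheres carried epithelial markers, with *EPCAM*, *CDH1*, *KRT8* and *KRT18* summing to between 1747 and 3835 CPM in every library. The MDA-MB-231 libraries held the same 4 markers at 937 to 1672 CPM, nearly all of it *KRT8* and *KRT18*. In WT cells *CDH1*, which encodes E-cadherin, had 1.54, 0.745 and 1.41 CPM against 527, 532 and 521 CPM in unstimulated MI-spheres, and *EPCAM* 16.8, 10.9 and 21.4 CPM against 66.5, 59.0 and 60.7 CPM. The MDA-MB-231 libraries held a list of *VIM*, *ZEB1*, *CDH2* and *FN1* at 876 to 4117 CPM, against 56.3 to 294 CPM in spheres. Of these 4 genes, 3 were called higher in WT cells than in unstimulated MI-spheres. *CDH2* was not called in the fit without WT replicate 2 (-0.01, SE 0.28, edgeR adjusted p = 0.974). *HRAS* was higher in MII- than in MI-spheres by 2.45 on the log2 scale (SE 0.04). In MI-spheres *PMEPA1*, a classic TGFβ target, was higher after TGFβ by 1.44 (SE 0.05), and in MII-spheres by 0.24 (SE 0.04). The siRNA-treated cells had lower *SMAD2* (-1.92, SE 0.05), *SMAD3* (-0.69, SE 0.04) and *SMAD4* (-1.72, SE 0.06).

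Features of the MDA-MB-231 libraries touch every result that uses them. WT replicate 2 stood apart: its log2 CPM correlated across genes with r = 0.957 and 0.952 with the other WT libraries, while all other pairs of replicates reached at least 0.984. Its *CLDN7*, *OCLN* and *F11R* were the lowest of the WT group and its *CLDN3* and *CGN* the highest, so the tests of the 9 genes against WT cells are given with and without it. *SNAI2* mRNA was higher, not lower, in the libraries labelled SLUG KO, at 63.5, 57.7 and 64.3 CPM against 30.2, 20.9 and 33.7 CPM in WT (log2 fold-change 1.10, SE 0.21, adjusted p = 0.040 by edgeR). The guide targeted the start of exon 1, so mRNA does not show whether protein was lost, and the group name is used as a label only. The study states that its knockout clones were checked by ddPCR and immunoblotting, which the counts examined here cannot show. The siSMAD2/3/4 and Csi libraries carry another batch label than the other 18 libraries and were tested only against each other. In the file headers, the counting command of the WT libraries sets no feature type, so the default of the program applied. The headers of all other libraries set one, and whether this affected the counts was not tested.

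For a sense of the regulatory sequence of these genes, RefSeq promoter windows (GRCh38.p14) were matched by symbol for 8 of the 9 genes. *F11R* had no entry. The 250 bases upstream of the start are shown for *CLDN1*, *CLDN4*, *CLDN7* and *OCLN*, the membrane proteins whose mRNA was lower after TGFβ in MI-spheres. Of several RefSeq starts, the start of the GENCODE canonical transcript is shown. Bases run 5′ to 3′ on the strand of the gene, and capitals mark the E-box bound by SNAI and ZEB factors, searched as CAGGTG or, for the other strand, CACCTG.
CLDN1 (chr3:190322447-190322696, minus strand): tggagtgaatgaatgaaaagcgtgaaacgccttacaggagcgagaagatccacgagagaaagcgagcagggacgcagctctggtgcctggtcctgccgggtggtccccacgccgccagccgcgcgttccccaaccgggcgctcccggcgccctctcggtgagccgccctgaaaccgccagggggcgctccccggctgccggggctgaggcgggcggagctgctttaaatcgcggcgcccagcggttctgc
CLDN4 (chr7:73830746-73830995, plus strand): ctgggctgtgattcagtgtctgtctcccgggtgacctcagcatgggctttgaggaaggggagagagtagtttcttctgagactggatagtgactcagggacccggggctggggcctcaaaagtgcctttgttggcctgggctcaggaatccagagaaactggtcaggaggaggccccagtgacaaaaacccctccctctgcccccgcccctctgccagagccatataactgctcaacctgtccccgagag
CLDN7 (chr17:7262479-7262728, minus strand): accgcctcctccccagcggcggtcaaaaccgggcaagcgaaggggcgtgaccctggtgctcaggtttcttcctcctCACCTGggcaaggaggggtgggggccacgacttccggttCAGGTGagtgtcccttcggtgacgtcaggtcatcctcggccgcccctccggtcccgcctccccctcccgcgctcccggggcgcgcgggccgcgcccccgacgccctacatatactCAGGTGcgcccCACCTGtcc
OCLN (chr5:69492540-69492789, plus strand): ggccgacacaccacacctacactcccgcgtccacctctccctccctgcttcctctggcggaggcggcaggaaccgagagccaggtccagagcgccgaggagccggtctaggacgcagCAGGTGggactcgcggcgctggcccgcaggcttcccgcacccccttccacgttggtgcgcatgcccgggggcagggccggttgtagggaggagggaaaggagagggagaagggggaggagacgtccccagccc
The *CLDN7* window held 4 such matches, beginning 174, 135, 20 and 9 bases upstream of the start. *OCLN* held 1 match, 133 bases upstream, and a neighbouring start of *OCLN* another at 33 bases. Of the remaining genes only *TJP1* held one, 88 bases before its most upstream start and not at its canonical start. No match was found in the windows of *CLDN1*, *CLDN3*, *CLDN4*, *CGN* or *MARVELD2*. Counted by window, 4 of the 13 windows of these genes contained a match, beside 17.5% of the 35116 RefSeq windows of this length. These are matches of letters only, and whether any is bound was not tested.

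Where the 9 genes were expressed divided the series first. *CLDN7* ranged from 339 to 452 CPM over the 12 sphere libraries, and from 5.88 to 22.8 CPM over the 12 MDA-MB-231 libraries. *F11R* covered 140 to 200 CPM in spheres and 6.29 to 26.3 CPM in MDA-MB-231 cells. *CGN* ranged from 48.9 to 72.6 CPM and from 2.95 to 7.17 CPM in the respective libraries. All 3 therefore separated without overlap, as did *CLDN1* (50.4 to 114.9 CPM against 1.61 to 9.82 CPM), *OCLN* (48.5 to 85.2 against 8.04 to 19.9 CPM) and *MARVELD2* (46.2 to 56.8 against 4.02 to 5.75 CPM). *CLDN4*, one of the 2 leading claudins of the spheres at 417 to 828 CPM, remained the most abundant claudin of MDA-MB-231 cells at 105.3 to 232 CPM. *TJP1* was the exception among the well-expressed genes, with 103.5 to 144 CPM in spheres and 134 to 158 CPM in MDA-MB-231 cells. The share of all genes that separate in this way was not computed. For scale, 25.9% of 18732 genes tested were called lower and 28.1% higher in WT cells than in unstimulated MI-spheres. In bulk RNA, fewer cells that express a gene and less RNA per cell cannot be told apart.

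*CLDN3*, a sealing claudin common in other glandular epithelia, was near the detection limit in spheres. It had 1, 2 and 2 raw counts in unstimulated and 2, 1 and 5 in TGFβ-stimulated MI-spheres, and 2, 5 and 3 and then 3, 2 and 0 in the corresponding MII-spheres. It did not pass the low-count filter in any comparison among or with spheres, so 8 of the 9 genes were tested there. In MDA-MB-231 cells it had between 6 and 77 counts per library, and its highest value (77 counts, 3.19 CPM) was that of WT replicate 2. Its level was at most 0.213 CPM in sphere libraries and at least 0.225 CPM in MDA-MB-231 libraries. *CLDN3* thus also separated, in the reverse direction and by little.

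Between genes, levels were compared per kilobase of exon (RPKM computed from the TMM-scaled CPM). In unstimulated MI-spheres *CLDN7* reached 173 ± 7.21 RPKM and *CLDN4* 134 ± 2.68 RPKM (SD, n = 3), which were 50.4% and 38.9% of the summed RPKM of all 24 claudin genes. *CLDN1* followed at 21.1 ± 0.37 RPKM. The order of the first 2 and these shares depend on the annotated exon length, 2492 bases for *CLDN7* and 4699 for *CLDN4*. By CPM *CLDN4* was above *CLDN7* in these spheres (628 against 431 CPM). *F11R* had 31.3 ± 0.30 RPKM, *TJP1* 12.3 ± 0.65, *CGN* 10.5 ± 0.50, *MARVELD2* 9.77 ± 0.51 and *OCLN* 7.49 ± 0.07. In MDA-MB-231 WT cells the claudins summed to 51.9 RPKM, against 343 RPKM in unstimulated MI-spheres. *CLDN4* made up 49.4% of them, and *CLDN7* 7.56%. *CLDN2*, a claudin that forms cation pores, and *CLDN23* were among the 5 leading claudins of WT cells, at 4.37 ± 2.28 and 5.06 ± 2.22 RPKM. Without WT replicate 2 the claudins summed to 49.8 RPKM, of which *CLDN4* made up 51.4% and *CLDN7* 9.44%, and *CLDN2* and *CLDN23* had 3.06 and 3.79 RPKM. *CLDN8* showed the opposite pattern, as it had 659 counts over the 3 unstimulated MI libraries and no count in any MDA-MB-231 library. *CLDN23* and the sphere values of *CLDN8* were picked after their values were seen.

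The first comparison asked how TGFβ changed junction genes in MI-spheres. Of the 8 genes tested 6 were lower after stimulation, and the other 2 were not called. Among all 16863 genes tested, 27.4% were called lower and 28.7% higher. The median log2 fold-change of the 8 genes was -0.43, beside -0.02 for all genes tested. *CLDN1* was at 75.0, 77.4 and 77.4 CPM without and 51.9, 51.4 and 50.4 CPM with TGFβ, which did not overlap. Its log2 fold-change was -0.66 (SE 0.06, edgeR adjusted p = 4.10e-09). *CLDN4* was at 632, 614 and 638 CPM without TGFβ and at 429, 417 and 431 CPM with it. The groups were again apart, with -0.64 (SE 0.05, edgeR adjusted p = 4.26e-10). *CLDN7*, the other abundant claudin, had a smaller change, from 425, 418 and 452 CPM to 369, 339 and 360 CPM (-0.36, SE 0.05, edgeR adjusted p = 5.22e-06).

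*OCLN*, the strand protein first described in tight junctions, was at 83.7, 84.0 and 85.2 CPM in unstimulated and at 57.7, 56.7 and 61.2 CPM in stimulated MI-spheres. Its log2 fold-change of -0.61 (SE 0.06) matched those of *CLDN1* and *CLDN4* within their errors. Of the plaque genes, *CGN* was lower with a log2 fold-change of -0.50 (SE 0.06), from 72.6, 69.7 and 66.1 CPM to 53.7, 53.4 and 48.9 CPM. *TJP1* went from 144, 143 and 131.001 CPM to 118, 120 and 114 CPM (-0.33, SE 0.06, edgeR adjusted p = 4.07e-05). Both plaque genes kept stimulated libraries below every unstimulated one. *MARVELD2*, the protein of corners where cells meet, had -0.08 (SE 0.06, edgeR adjusted p = 0.255) with overlapping groups of 49.6, 55.1 and 52.5 against 52.0, 51.4 and 53.5 CPM. *F11R* had 157, 159 and 159 CPM without and 175, 163 and 200 CPM with TGFβ. Its fold-change of 0.10 (SE 0.06) in the fit of these 6 libraries was not called (edgeR adjusted p = 0.158), but it was called without stimulated replicate 2 (0.16, edgeR adjusted p = 0.016) and with all 12 sphere libraries in 1 fit (0.12, edgeR adjusted p = 0.040). As the CPM were scaled over all 24 libraries, their ratio (means of 158 and 179 CPM) is larger than this fold-change. CPM ratios of the other tested genes in MI-spheres also lie above their fitted fold-changes. *MARVELD2*, for example, had means of 52.4 and 52.3 CPM.

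The wider junction list comprised 53 other genes, namely 20 claudins, 8 membrane proteins, 16 plaque and adaptor proteins and 9 polarity proteins. In MI-spheres 36 of them were tested, of which 14 were lower, 9 higher and 13 not called, with a median of -0.13. The 16 tested plaque and adaptor genes included 8 lower and 3 higher. Among the genes lower by over 1 on the log2 scale was the cingulin paralog *CGNL1* (-1.41, SE 0.29). *JAM3*, a relative of JAM-A, was higher by 1.37 (SE 0.15), and *ILDR1*, a protein of tricellular contacts, by 1.04 (SE 0.22). *SNAI1*, which encodes a repressor of junction genes, was lower at this time, at 4.30 ± 0.14 CPM against 18.9 ± 1.68 CPM (SD, n = 3), whereas *SNAI2* was higher by 0.92 (SE 0.13). Of the 5 factors of the epithelial state examined (*GRHL2*, *GRHL3*, *OVOL1*, *OVOL2* and the splicing factor *ESRP1*), 4 were lower. The summed level of *VIM*, *ZEB1*, *CDH2* and *FN1* was 56.3 to 62.0 CPM without and 263 to 294 CPM with TGFβ, with *VIM*, *CDH2* and *FN1* called higher and *ZEB1* not called (0.45, SE 0.26, edgeR adjusted p = 0.156), and its part in the junction result was not tested.

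In MII-spheres the same stimulus gave another picture. Of the 8 genes tested 3 were higher, 1 was lower and 4 were not called, beside 29.9% higher and 27.6% lower among the 16396 genes tested. Their median was 0.06, and that of all genes -0.02. *CLDN1* was at 73.6, 70.5 and 69.3 CPM without and 110, 111.7 and 115 CPM with TGFβ. Every stimulated library was above every unstimulated one, and the log2 fold-change was 0.62 (SE 0.05, edgeR adjusted p = 2.53e-16). *F11R* was higher by 0.34 (SE 0.04), from 142, 140 and 142 CPM to 186, 187 and 178 CPM. *MARVELD2* was higher by 0.21 (SE 0.06, edgeR adjusted p = 0.0014), from 46.2, 46.9 and 47.3 CPM to 53.4, 56.8 and 56.6 CPM. Neither gene's groups overlapped.

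The 2 leading claudins of MII-spheres were close to zero change. *CLDN4* had 769, 814 and 766 CPM without and 797, 739 and 828 CPM with TGFβ (-0.03, SE 0.04, edgeR adjusted p = 0.522). *CLDN7* had 412, 423 and 396 CPM and then 433, 432 and 424 CPM (0.03, SE 0.03, edgeR adjusted p = 0.504), just without overlap. *OCLN* had 55.2, 55.0 and 57.4 CPM and then 48.5, 58.0 and 56.6 CPM (-0.07, SE 0.06, edgeR adjusted p = 0.301). For *CGN* the value was 0.10 (SE 0.05, edgeR adjusted p = 0.107), with 64.2, 64.9 and 59.0 CPM before and 67.3, 68.4 and 71.3 CPM after stimulation, again without overlap. *TJP1*, at 114, 123 and 118 against 103.5, 118 and 110 CPM, was lower with a log2 fold-change of -0.14 (SE 0.05, edgeR adjusted p = 0.011) although its groups overlapped, and 8 of the 14 alternative settings no longer called it (DESeq2 adjusted p = 0.167). In the wider list 9 of 37 genes were higher and 14 lower, with a median of 0.00. The list included 10 of 16 plaque and adaptor genes that were lower. *CLDN16* was higher by 1.24 (SE 0.42) from very low counts, and *IGSF5* was lower with a log2 fold-change of -1.04 (SE 0.46) with at most 23 counts per library. *SNAI1* was lower with a log2 fold-change of -2.53 (SE 0.13), and *SNAI2* was not called (0.40, SE 0.27). Of the 5 factors of the epithelial state, *GRHL3* (-0.68, SE 0.18) and *OVOL1* (-0.76, SE 0.10) were lower and 3 were not called. *VIM* (1.51, SE 0.18) and *CDH2* (1.21, SE 0.15) were higher in MII-spheres too, while *FN1* (0.09, SE 0.04) and *ZEB1* (0.15, SE 0.21) were not called. The part of these genes in the junction result was not tested.

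The difference between the lines was tested directly as the interaction of line and TGFβ in 1 fit of the 12 sphere libraries. All 8 genes tested responded more positively in MII- than in MI-spheres, where 12.6% of the 18591 genes tested were called in this direction and 9.75% in the other. *CLDN1* differed most, by 1.29 (SE 0.07, edgeR adjusted p = 7.67e-17), since it was lower in one line and higher in the other. *CLDN4* followed with 0.63 (SE 0.06), *CGN* with 0.61 (SE 0.09), *OCLN* with 0.54 (SE 0.09) and *CLDN7* with 0.40 (SE 0.06), all with an edgeR adjusted p of 4.15e-06 or less. *MARVELD2* had 0.31 (SE 0.08, edgeR adjusted p = 0.0057), *F11R* 0.25 (SE 0.07, edgeR adjusted p = 0.0087) and *TJP1* 0.20 (SE 0.08, edgeR adjusted p = 0.048). Without unstimulated MI replicate 2 the last 3 genes were not called, which left 5. The *F11R* call was also lost without unstimulated MI replicate 3, stimulated MI replicate 1 or 2, or stimulated MII replicate 1 or 2 (edgeR adjusted p of at most 0.125), and that of *MARVELD2* without stimulated MII replicate 3 (0.053). *TJP1* was called in only 4 of 19 alternatives, with a DESeq2 adjusted p of 0.062. In the wider list 8 of 38 genes were called in the same direction and 4 in the other, and the median was 0.14. *PMEPA1* and *SKIL*, targets of TGFβ, differed in the opposite direction, with -1.19 (SE 0.06) and -0.51 (SE 0.07). Markers of basal mammary epithelium also moved with TGFβ. *KRT5*, *KRT14*, *KRT17* and *TP63* summed to 1406 to 1459 CPM in unstimulated and 3018 to 3284 CPM in stimulated MI-spheres. In MII-spheres these markers summed to 354 to 359 CPM without and 1391 to 1508 CPM with TGFβ. Their part in the junction result was not tested.

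**Figure D1:**
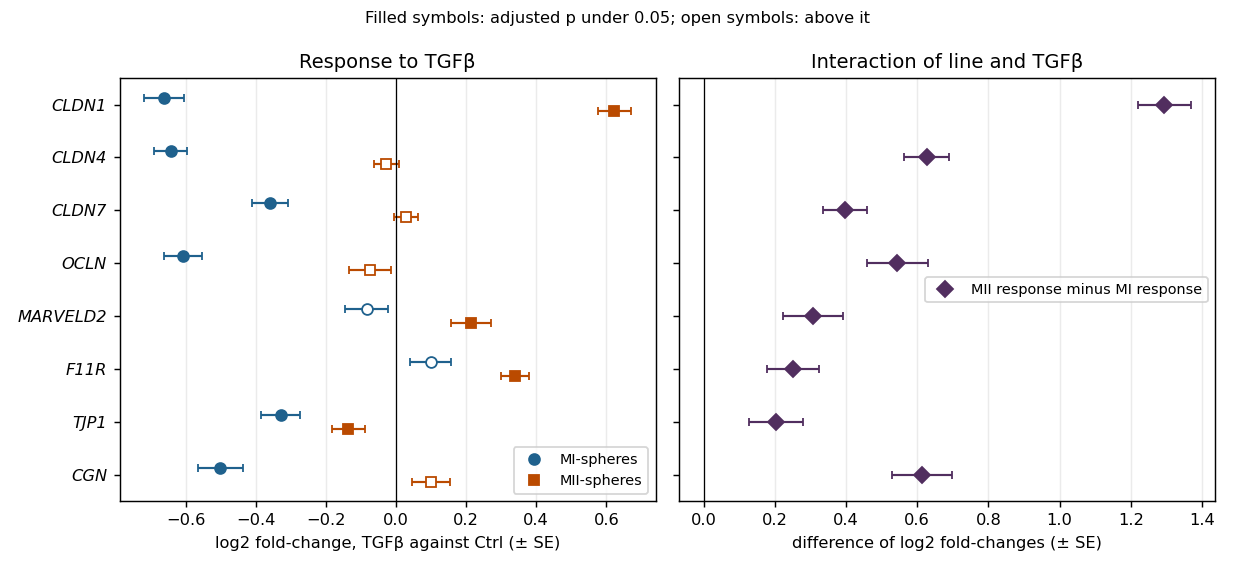
Left, log2 fold-change (± SE) of 8 genes after TGFβ in MI-spheres (circles) and MII-spheres (squares); right, the difference of these responses, MII minus MI. Filled symbols have an adjusted p under 0.05. In MI-spheres 6 genes lie below zero, *CLDN1* lies at -0.66 in MI- and 0.62 in MII-spheres, and all differences lie above zero.

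Without TGFβ, HRAS-transformed MII-spheres had more *CLDN4* than MI-spheres and less of the membrane and plaque genes. Of the 8 genes tested, 1 was higher and 5 lower, against 31.7% higher and 32.5% lower among 17862 genes. The median of the 8 was -0.14, and 0.02 over all genes. *OCLN* had the largest difference, with 55.2, 55.0 and 57.4 CPM in MII- against 83.7, 84.0 and 85.2 CPM in MI-spheres (-0.58, SE 0.05, edgeR adjusted p = 1.33e-15). Thus unstimulated MII-spheres had *OCLN* at the level of stimulated MI-spheres, whose ranges overlapped. *CLDN4* was higher by 0.33 (SE 0.03), as all 3 MII libraries (769, 814 and 766 CPM) exceeded the MI libraries (632, 614 and 638 CPM). *TJP1* was lower with a log2 fold-change of -0.22 (SE 0.04), *F11R* with -0.15 (SE 0.04), *MARVELD2* with -0.15 (SE 0.06) and *CGN* with -0.14 (SE 0.05). These differences were at most 1.17-fold, and leaving out single libraries ended the call of *CGN* (MI replicate 1 or MII replicate 3) or *MARVELD2* (MI replicate 2). *CLDN1* (-0.10, SE 0.05, edgeR adjusted p = 0.076) and *CLDN7* (-0.06, SE 0.04, edgeR adjusted p = 0.156) were not called.

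The wider list went the other way, as 21 of its 37 tested genes were higher in MII-spheres and 6 lower, with a median of 0.20. *CLDN10* had 3 or 4 counts per MI library and was higher in MII-spheres, at 4.05 ± 0.17 CPM. *CGNL1* was higher by 2.92 (SE 0.14), at 14.5 ± 1.47 against 1.93 ± 0.12 CPM, and *IGSF5* was called higher with 12, 23 and 11 counts against 3, 2 and 3. *CLDN8*, chosen after its values were seen, was higher by 1.59 (SE 0.08), with 28.6, 29.8 and 31.0 CPM against 10.3, 9.77 and 9.76 CPM. It was higher after TGFβ in both lines, by 0.61 (SE 0.06) in MII- and by 0.36 (SE 0.11) in MI-spheres. *JAM3* was lower with a log2 fold-change of -3.82 (SE 0.38), the activator *GRHL3* with -2.89 (SE 0.09) and *SNAI2* with -1.51 (SE 0.21).

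MDA-MB-231 WT cells were then set against unstimulated MI-spheres. Line and culture, monolayer against spheres, cannot be told apart in this comparison. Of the 8 genes tested 7 were lower in WT cells, while 25.9% of 18732 genes were lower and 28.1% higher. The median of the 8 was -3.65, beside 0.06 for all genes. *CLDN1* was at 1.73, 1.61 and 1.81 CPM against 75.0, 77.4 and 77.4 CPM, 44.6-fold lower (-5.48, SE 0.18, edgeR adjusted p = 3.03e-06). *CLDN7* was at 10.8, 5.88 and 12.7 CPM against 425, 418 and 452 CPM, 44.3-fold lower. *CLDN4*, at 105.3, 120.8 and 136 against 632, 614 and 638 CPM, was lower only 5.23-fold.

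*OCLN* was lower with a log2 fold-change of -2.72 (SE 0.22), *F11R* with -3.89 (SE 0.31), *MARVELD2* with -3.42 (SE 0.19) and *CGN* with -3.997 (SE 0.31). *TJP1* was at 143, 158 and 137 CPM in WT cells and 144, 143 and 131.001 CPM in MI-spheres (0.06, SE 0.15, edgeR adjusted p = 0.763). Without WT replicate 2 the same 7 genes were lower, with -2.42 (*CLDN4*) to -5.47 (*CLDN1*), and *TJP1* had -0.03 (SE 0.07), while the shares over all genes rose to 36.6% higher and 38.3% lower. In the wider list 13 genes were higher, 13 lower and 13 not called, with a median of 0.14. Without WT replicate 2, 17 were higher and 16 lower. *ILDR2* had 1452, 1219 and 1292 counts in WT cells against 7, 4 and 3 in MI-spheres, and *CLDN2* 295, 576 and 244 counts against 2, 0 and 3. Both were called higher, also without WT replicate 2, and no fold is given for *CLDN2* as its MI counts were at or under 3 per library. *CLDN8* was at least 83.5-fold lower, with a floor of 3 counts per library. Of the regulators, *ZEB1* was at 110, 66.9 and 106.2 CPM in WT cells and 1.22 ± 0.09 CPM in MI-spheres, while *GRHL2* had 3, 1 and 2 counts in the WT libraries against 127 ± 1.84 CPM in MI-spheres. *ESRP1* had 0, 0 and 2 counts against 200 ± 5.41 CPM. The repressors did not all go with *ZEB1*. Of 5 repressors of epithelial genes examined (*SNAI1*, *SNAI2*, *ZEB1*, *ZEB2* and *TWIST1*), 3 were called higher in WT cells and 2 lower. Without WT replicate 2, *SNAI2* (2.84, SE 0.11) and *ZEB2* (2.54, SE 0.18) were higher. In that fit *SNAI1* (-4.56, SE 0.18) and *TWIST1* (-5.64, SE 0.42) were lower.

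Between the libraries labelled SLUG KO and WT, 2 of the 9 genes were called, both higher in the labelled libraries. Only 1.45% of the 17428 genes tested were called higher and 1.89% lower. *CLDN1* was at 8.18, 8.63 and 9.82 CPM (206, 189 and 217 counts) against 1.73, 1.61 and 1.81 CPM in WT (46, 39 and 45 counts). The groups were far apart, with a 5.06-fold difference (2.34 on the log2 scale, SE 0.21, edgeR adjusted p = 0.0028). This call held in every alternative run. Its level in the labelled libraries was still below that in each sphere library, the lowest of which had 50.4 CPM. *CLDN4* was at 232, 225 and 197 CPM against 105.3, 120.8 and 136 CPM (0.83, SE 0.17, edgeR adjusted p = 0.047). Its groups did not overlap, but 10 of the 13 alternatives did not call it, among them those without any single SLUG KO library or without WT replicate 1 or 3 (edgeR adjusted p of up to 0.274).

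Calls of other genes depended on WT replicate 2. Without it 5 genes were higher, while 16.8% of all genes tested were then higher and 14.4% lower. These were *CLDN1* (2.31, SE 0.19), *CLDN4* (0.85, SE 0.11), *CLDN3* (2.34, SE 0.43), *CGN* (1.07, SE 0.17) and *OCLN* (0.32, SE 0.12, edgeR adjusted p = 0.044). With all libraries, *CLDN3* had 2.46, 1.42 and 2.44 CPM against 0.23, 3.19 and 0.60 CPM in WT (0.63, SE 0.81, edgeR adjusted p = 0.699), so that WT replicate 2 was above all labelled libraries and the other WT libraries below them. *CGN* had 7.11, 7.17 and 7.06 CPM against 3.11, 6.37 and 3.62 CPM (0.68, SE 0.30, edgeR adjusted p = 0.277), and *OCLN* 17.1, 19.9 and 17.9 CPM against 13.996, 9.44 and 15.0 CPM (0.49, SE 0.22, edgeR adjusted p = 0.291), both without overlap. In neither fit were *CLDN7*, *F11R*, *MARVELD2* or *TJP1* called. *TJP1* had 134, 137 and 155 CPM against 143, 158 and 137 CPM (-0.07, SE 0.16, edgeR adjusted p = 0.841).

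In the wider list 2 of 34 genes were called, both higher. These were *CLDN11*, a claudin of myelin and testis, at 11.6, 11.7 and 10.5 CPM against 1.95, 0.70 and 2.17 CPM (2.78, SE 0.39, edgeR adjusted p = 0.013), and the polarity gene *PARD6B*, at 303, 322 and 313 CPM against 119.02, 59.98 and 136 CPM (1.55, SE 0.30, edgeR adjusted p = 0.040). Without WT replicate 2 they had 2.44 (SE 0.17) and 1.29 (SE 0.09), and 12 genes of the list were higher and 5 lower. Of *VIM*, *ZEB1*, *CDH2* and *FN1*, which summed to 876 to 963 CPM in the labelled libraries and to 1609 to 1677 CPM in WT, *FN1* was called lower, at 83.3, 82.7 and 96.9 CPM against 717, 974 and 628 CPM (-3.17, SE 0.23, edgeR adjusted p = 0.0018). *VIM* (-0.12), *ZEB1* (0.04) and *CDH2* (0.93) were not called (edgeR adjusted p of 0.785, 0.933 and 0.375), but *VIM* was called lower without WT replicate 2 (-0.29, SE 0.10, edgeR adjusted p = 0.029). The part of these genes in the junction result was not tested.

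Silencing of SMADs went with a change in 2 of the 9 genes in MDA-MB-231 cells, while 16.3% of the 17696 genes tested were higher and 19.7% lower. *CLDN1* was at 3.12, 1.63 and 2.54 CPM (113, 56 and 82 counts) against 4.92, 4.29 and 4.47 CPM in Csi (147, 163 and 165 counts), so all silenced libraries were below the controls. Its log2 fold-change was -0.91 (SE 0.18, edgeR adjusted p = 1.07e-04). *F11R* was at 26.3, 23.9 and 24.3 CPM against 20.0, 21.7 and 21.6 CPM (0.23, SE 0.07, edgeR adjusted p = 0.0089). This call was lost without silenced replicate 1 (edgeR adjusted p = 0.070) and with flow cell as a term (edgeR adjusted p = 0.125). Per the names in the file headers, silenced replicates 1 and 2 ran on another flow cell than replicate 3 and the Csi libraries, whereas the sample labels give 1 flow cell for all 6 libraries, so the term rests on the headers.

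The remaining genes were not called, although *CLDN7* and *TJP1* did not overlap between the groups. *CLDN4* had 164, 169 and 154 CPM against 165, 168 and 177 CPM (-0.07, SE 0.04, edgeR adjusted p = 0.209). *CLDN7* had 22.4, 22.8 and 19.9 CPM against 19.6, 19.1 and 19.6 CPM (0.15, SE 0.07, edgeR adjusted p = 0.103). *TJP1* had 148, 148 and 150 CPM against 141, 143 and 141 CPM (0.06, SE 0.04, edgeR adjusted p = 0.234). *CLDN3*, *CGN*, *MARVELD2* and *OCLN* lay between -0.08 and 0.35, with SE from 0.10 to 0.26. The median of the 9 genes was 0.06, and 0.00 over all genes. In the wider list 9 of 35 genes were higher and 5 lower. *TJP3*, which encodes ZO-3, had 8.89, 7.78 and 8.14 CPM against 2.98, 2.34 and 3.28 CPM (1.53, SE 0.13), *CGNL1* was higher by 1.01 (SE 0.08) and the activator *GRHL3* by 1.498 (SE 0.40), and *ILDR2* was lower with a log2 fold-change of -1.13 (SE 0.06).

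**Figure D2:**
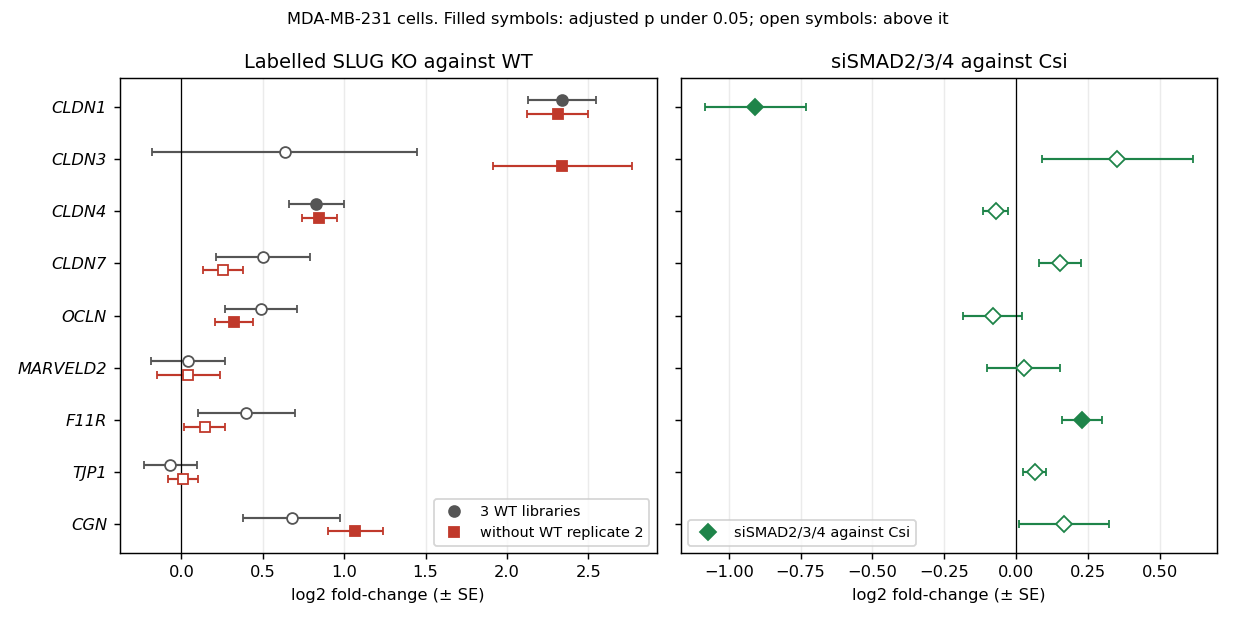
Log2 fold-change (± SE) of the 9 genes in MDA-MB-231 cells, for libraries labelled SLUG KO against WT with all 3 WT libraries (circles) and without WT replicate 2 (squares), and for siSMAD2/3/4 against Csi (diamonds). Filled symbols have an adjusted p under 0.05. *CLDN1* lies at 2.34 in the first and at -0.91 in the second comparison, and *CLDN3* moves from 0.63 to 2.34 without WT replicate 2.

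*CLDN1* was thus called in 5 of the 6 comparisons of pairs of groups, and its order over groups was MII TGFβ (112.2 CPM), MI Ctrl (76.6), MII Ctrl (71.1), MI TGFβ (51.2), SLUG KO (8.88), Csi (4.56), siSMAD2/3/4 (2.43) and WT (1.72). Only the last pair of neighbours had overlapping libraries. In such orders the siSMAD2/3/4 and Csi libraries come from another batch than the rest, so that batch and group cannot be told apart between them and the other groups. Without WT replicate 2 the rank of WT cells changed for *CLDN3* (from 3 to 4), *TJP1* (from 2 to 4) and *CGN* (from 6 to 8). For *CLDN4*, MII TGFβ and MII Ctrl overlapped at the top (788 and 783 CPM), as did Csi and siSMAD2/3/4 (170 and 162 CPM). For *TJP1* the first 5 groups in order, from siSMAD2/3/4 (149 CPM) to MI Ctrl (139 CPM), each overlapped with the next. For *MARVELD2* all neighbouring MDA-MB-231 groups overlapped, between 4.91 and 5.24 CPM.

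The genes whose log2 CPM followed each gene most closely were sought among 15116 genes over the 18 libraries of the sphere, WT and SLUG KO groups. Such values describe these libraries, which carry the same batch label, differ in depth and fall into spheres and MDA-MB-231 cells. The r over 18 libraries therefore rests mainly on that split. *CLDN7* came closest to *ERMP1* (r = 0.998), *CGN* to the keratin gene *KRT7* (0.997), *MARVELD2* to the splicing factor *ESRP1* (0.997), *F11R* to *ELF1* (0.996), *CLDN1* to *MFSD9* (0.992), *OCLN* to *KLF3* (0.990) and *CLDN4* to *YPEL2* (0.988). Within the 12 sphere libraries these values were 0.516 for *CLDN7*, 0.753 for *CGN*, 0.260 for *MARVELD2*, 0.798 for *F11R*, 0.843 for *CLDN1*, 0.841 for *OCLN* and 0.950 for *CLDN4*. *TJP1* came closest to *NFKB2*, with r = 0.912 over the 18 libraries and 0.896 within the 12 sphere libraries. Among the genes themselves, r over 18 libraries was 0.909 to 0.995 for all pairs without *TJP1*, and -0.728 to -0.566 for pairs with it. Within spheres *CLDN7* and *CGN* had r = 0.878, *OCLN* and *TJP1* 0.897, and *CLDN7* and *F11R* -0.187. *CLDN3* was too low to be compared.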

How the data were processed

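RNA was sequenced in 24 libraries with the TruSeq stranded total RNA kit after RiboZero depletion. The authors deposited raw counts per gene, made per the file headers with featureCounts (Subread 2.0.0) on GRCh38 with GENCODE 38, without strand and with a mapping quality of at least 30; STAR and Trimmomatic are named in the submitters' processing notes. The 16 ATAC-seq samples were not analysed here. Counts were tested with the quasi-likelihood test of edgeR 4.0.16 (limma 3.58.1, R 4.3.3) after filterByExpr and TMM scaling, each comparison on its own 6 libraries and the interaction on 12, and p-values were adjusted by Benjamini-Hochberg across every gene in the fit. SE was the log2 fold-change divided by the square root of F. DESeq2 1.42.0 and other settings were alternatives. With 3 against 3 libraries an exact permutation test cannot go below p = 0.1, so none was run. Named genes of the wider lists were the called genes with the largest log2 fold-changes over 1 in each direction, up to 3, whose groups did not overlap in CPM, unless stated otherwise. Some genes that this rule names are not reported here. Members and lists were chosen with earlier results of these data known. On simulated data with 200 changed genes of 1.5 on the log2 scale, edgeR recovered 89.5% in the MI and 94.0% in the MII comparison, but 31.0% for SLUG KO against WT and 26.5% for WT against MI-spheres. Replicate numbers did not pair libraries (r of deviations -0.123 to 0.051).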

Additional observations from a re-analysis of the deposited data

Results flagged for a closer look

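The response to TGFβ differed between MI- and MII-spheres for all 8 genes tested, by the interaction term in edgeR (adjusted p under 0.05). Each value is the log2 response in MII- minus that in MI-spheres: *CLDN1* 1.29, *CLDN4* 0.63, *CGN* 0.61, *OCLN* 0.54, *CLDN7* 0.40, *MARVELD2* 0.31, *F11R* 0.25 and *TJP1* 0.20. Of 19 alternatives, *TJP1* was called in 4, *F11R* in 13 and *MARVELD2* in 17, and 5 genes were called without unstimulated MI replicate 2. *CLDN1* was the gene called in opposite directions in the lines, with all 3 stimulated libraries below the unstimulated ones in MI- and above them in MII-spheres. For *CLDN4*, *CLDN7*, *OCLN* and *CGN* the difference came with a lower level in MI-spheres and a change that was not called in MII-spheres. *F11R* and *MARVELD2* were called higher in MII-spheres and were not called in MI-spheres. With 3 libraries a group, single libraries were not tested as outliers.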

How the results depend on the processing

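Of the fold-changes of the 9 genes recomputed under alternatives, 752 kept direction and side of the threshold, 49 lost and 13 gained the call, and 20 changed sign, all of the latter for changes that had not been called. Counts of called genes moved in few settings. For SLUG KO against WT 2 members were called, and 1 with DESeq2 size factors in edgeR, with at least 10 counts in every library, with a gene length trend, with the replicate block, or with block and trend together. In the wider list 2 genes were called there, and 4 by DESeq2 but 1 with at least 10 counts in every library, with the block, or with block and trend. With flow cell as a term 1 member instead of 2 was called after SMAD silencing. With at least 10 counts in every library 17 instead of 26 listed genes were called for WT against MI-spheres. The replicate block moved no other count by over 1.5 times.

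Leaving out single libraries gave 6 to 7 called members in MI-spheres, 3 to 4 in MII-spheres, 5 to 7 between the lines, 5 to 8 for the interaction, 1 to 5 for SLUG KO, 1 to 3 for SMAD silencing and 7 to 8 for WT against MI-spheres. For the wider list the ranges were 21 to 24, 19 to 22, 23 to 26, 8 to 14, 0 to 17, 11 to 14 and 22 to 33. The 17 and 33 were reached without WT replicate 2.

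The sign changes were small. In MII-spheres *CLDN4* had 0.0094 with DESeq2, 0.0086 without a low-count filter, 0.0057 with 12 libraries in 1 fit, and 0.0020 and 0.0271 without replicate 2 of either group. *CLDN7* had -0.0104 with at least 10 counts in every library and *OCLN* 0.0096 without stimulated replicate 1. For SLUG KO *TJP1* had 0.0088 without filter or without WT replicate 2, 0.0150 with the length trend and 0.0136 with block and trend, and *MARVELD2* -0.0128, -0.0235 and -0.00534 without SLUG KO replicate 1 or 3 or WT replicate 1. After SMAD silencing *OCLN* had 0.1245 with flow cell and 0.0064 without silenced replicate 1, and *MARVELD2* -0.0636 with flow cell and -0.0735 without Csi replicate 2. For WT against MI-spheres *TJP1* had -0.0157 without MI replicate 3 and -0.0280 without WT replicate 2. Over all left-out libraries, the other ends of the ranges were -0.0557 for *CLDN4* and -0.112 for *OCLN* in MII-spheres, -0.113 for *TJP1* and 0.207 for *MARVELD2* in SLUG KO, -0.185 for *OCLN* and 0.106 for *MARVELD2* after silencing, and 0.087 for *TJP1* in WT. The cause of these changes was not tested. Library-size scaling without TMM multiplied levels by 0.844 to 1.089. *CLDN3*, with at most 5 counts in a sphere library, was limited by depth.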
